A study of Mus musculus with 12 samples.

Results

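The genes described here encode the machinery by which synaptic vesicles release neurotransmitter, measured as mRNA in the mouse cortex after a transient stroke. They were chosen by symbol: the synapsins (Syn), Rab3, synaptotagmins (Syt), syntaxins (Stx), Vamp, complexins (Cplx), Sv2, Snap, Rims and Unc13 genes, and the syntaxin-binding (Stxbp) genes. Of the 14317 genes of the table, 69 met this rule. Of these, 65 reached 0.5 FPKM (fragments scaled to the length of the gene and to the size of the library) in 6 or more libraries and were tested, and Syn3, Syt15, Unc13d and Stx11 lay below this minimum. Families chosen by name also hold members that act outside the synapse, such as syntaxins of the Golgi and endosome.

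A vesicle releases its transmitter in steps: it is tethered at the active zone, primed, and fused with the plasma membrane when calcium enters. Fusion is driven by SNARE proteins, as synaptobrevin (Vamp) on the vesicle zips together with syntaxin and SNAP-25 on the plasma membrane. Munc13 proteins (Unc13) prime this assembly, complexins hold it in check and synaptotagmins trigger it on binding calcium. Release of glutamate from such terminals is a known part of excitotoxic injury in the ischemic brain.

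The comparison was between 6 Sham mice and 6 mice with transient middle cerebral artery occlusion and reperfusion (tMCAO/R), with 1 library per mouse. The tMCAO/R mice had the vessel closed with a suture for 60 min, and tissue was taken 24 h after flow was restored. All animals were described as male C57BL/6J mice aged 8 weeks, and the tissue as the penumbra of the cortex, the rim around the infarct, on the operated side. The p-values below therefore set the difference between the groups against the spread between mice.

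Several libraries went against their description or stood apart. The Y-linked genes Ddx3y, Eif2s3y, Kdm5d and Uty were at 0 in all 6 Sham libraries and summed to 7.79 to 15.9 FPKM in the tMCAO/R libraries, although all mice were described as male, so a difference between the groups other than the surgery cannot be told apart from it. The library of tMCAO/R mouse 4 had a median Spearman correlation of 0.908 with its own group, where the other 5 had 0.964 to 0.974, so key counts are given with and without it. Regional markers also differed between the groups. Hippocampal markers summed to 163 to 254 FPKM in Sham and 26.4 to 42.6 FPKM in tMCAO/R mice, and 5 of 6 fell. All 7 striatal markers rose, from sums of 22.0 to 31.9 FPKM to sums of 52.2 to 490.3 FPKM, and of 10 general neuronal markers 4 rose and 1 fell. Oligodendrocyte markers (5 of 7 fell) and choroid plexus markers (2 of 3 tested fell) were highest in Sham mouse 4, at sums of 1416 and 1859 FPKM. All 5 red cell markers fell, from sums of 352.5 to 553 FPKM to sums of 72.2 to 431 FPKM. Of 6 microglial markers 3 fell and 1 rose (sums of 34.7 to 43.3 against 26.8 to 39.2 FPKM). Of 4 endothelial markers 3 rose and 1 fell (sums of 58.1 to 67.0 against 23.8 to 64.8 FPKM). The 1 that fell was Cldn5, the most abundant, at 51.2 to 60.9 FPKM in Sham and 12.4 to 42.3 FPKM in tMCAO/R mice. Of 6 inhibitory neuron markers 4 rose and 2 fell, Sst, the most abundant, among the latter (sums of 414 to 640 against 250 to 441 FPKM). Of 5 excitatory neuron markers 1 rose and 1 fell (sums of 648 to 833 against 452 to 765 FPKM). Of 6 astrocyte markers 1 rose and 1, Gfap, fell (sums of 206 to 250 against 181 to 269 FPKM). The part of these markers in the results on the release genes was not tested. In bulk tissue fewer cells of a type and less RNA per cell cannot be told apart.

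More release genes rose than fell in tMCAO/R mice. With limma on log2(FPKM + 1) and an adjusted p below 0.01, the threshold behind the words rose and fell, 21 of the 65 tested members rose (32.3%) and 9 fell (13.8%). Over all 11743 genes tested, 17.8% rose and 17.8% fell. The median log2 fold change (log2FC, tMCAO/R over Sham, on the log2(FPKM + 1) scale, which understates changes of low genes) was 0.17 over the members and -0.01 over all tested genes. Values of the groups did not overlap for 14 members that were higher (21.5%) and 8 that were lower (12.3%), against 13.8% and 13.2% of all tested genes. No member passed a |log2FC| of 2, which 0.247% of all tested genes passed upward and 0.255% downward. Without tMCAO/R mouse 4, 23 members rose and 13 fell, and all 30 calls were kept, beside 22.4% and 21.2% of all tested genes. Limma-voom, a count test on the fragments recovered from the FPKM, called 21 members higher and 11 lower, beside 16.3% and 16.5% of the genes it tested.

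All 4 Rims genes rose, as did Stx1a, Sv2a, Sv2b, Syn1 and 6 of 15 tested synaptotagmins. Vamp8, Vamp5, Vamp3, Stx4a, Stx2 and Stxbp2 were among the 9 that fell. The abundant core SNARE genes Snap25 and Vamp2 did not pass the test in either direction.

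**Figure D1:**
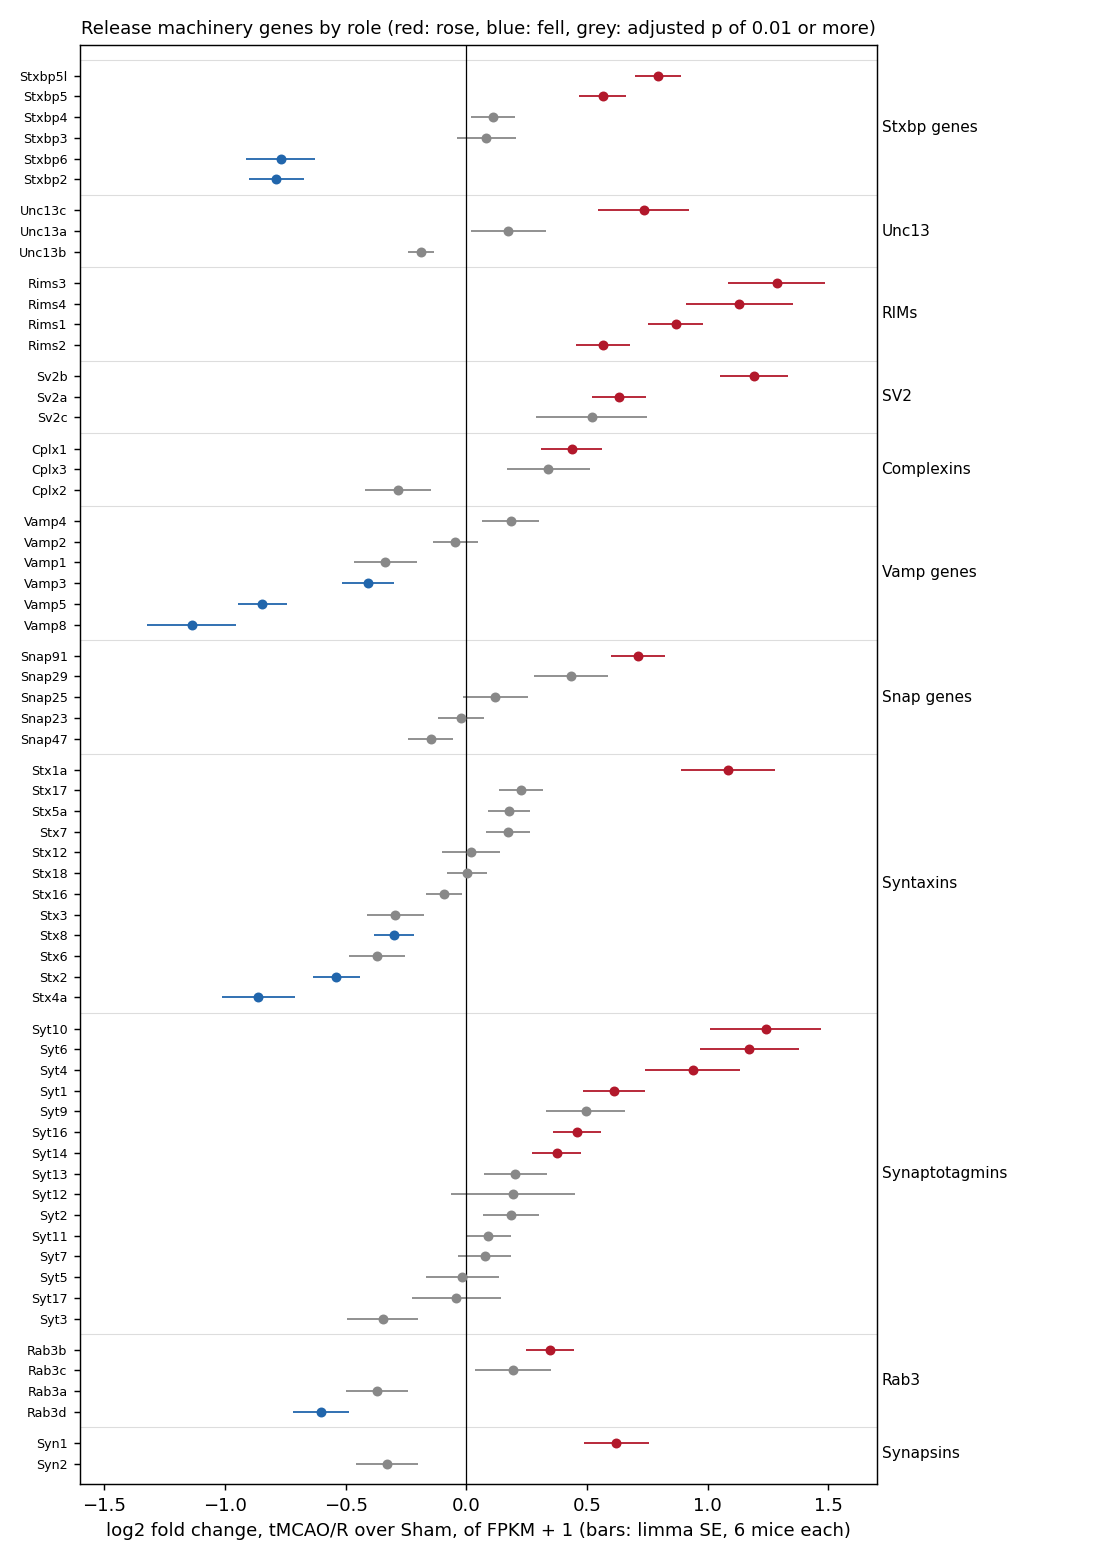
log2FC (x axis, tMCAO/R over Sham, of FPKM + 1) of 63 of the tested release genes, grouped by role (y axis), with bars for the limma standard error over 6 mice in each group. Red points rose, blue points fell and grey points did not pass an adjusted p of 0.01, and the range runs from -1.14 for Vamp8 to 1.29 for Rims3.

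Promoter letters were compared between members that rose and fell, as a description with no test. RefSeq sequences (build GRCm38.p6) of the 250 bases before the start site were at hand for 54 of the 69 members, and were searched on both strands for motifs of general and neuronal factors. The GC box GGGCGG, the letters read by Sp1, was in 41 of 54 members (75.9%), in 15 of 17 that rose (88.2%) and in 4 of 8 that fell (50.0%), beside 35.4% of 27025 genes with a promoter in the table. Those 27025 genes were not limited to genes expressed in these libraries, so the members and this background are unlike sets. The cAMP response element TGACGTCA was in Syn1 and Stxbp3, or 2 of 54 members (3.70%), beside 1.77% of all genes. The AP-1 letters TGANTCA were in 1 member, Syt2 (1.85%), beside 7.82%. An exact RE1 core, the letters read by the neuronal repressor REST, was in 0 of 54, beside 0.0518%. Only 14 of 27025 genes held that exact core, too few for 0 of 54 to say anything about the members. The Syn1 promoter below holds a stretch that differs from this core at 1 letter. A match is a description of the letters and not a site in use.

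Promoters of 4 members from different steps show both kinds of letters, 5′ to 3′ on the gene's strand with motif matches in capitals. Stx1a (plasma membrane SNARE, chr5:135023232-135023481, plus strand) and Sv2a (vesicle glycoprotein, chr3:96180977-96181226, plus strand) rose and each held 1 GC box, the latter as its reverse complement. Syn1 (vesicle tether, chrX:20920919-20921168, minus strand) rose and held 1 cAMP response element but, like Vamp8, no GC box. Vamp8 (endosomal SNARE, chr6:72390668-72390917, minus strand) fell and held no GC box, with a GC content of 43.6% against 62.0%, 66.0% and 68.0% for Stx1a, Sv2a and Syn1.
Stx1a: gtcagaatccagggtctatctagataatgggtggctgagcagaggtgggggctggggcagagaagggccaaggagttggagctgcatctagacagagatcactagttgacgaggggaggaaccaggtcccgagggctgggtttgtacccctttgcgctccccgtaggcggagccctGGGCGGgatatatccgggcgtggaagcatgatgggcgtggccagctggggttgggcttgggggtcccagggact
Sv2a: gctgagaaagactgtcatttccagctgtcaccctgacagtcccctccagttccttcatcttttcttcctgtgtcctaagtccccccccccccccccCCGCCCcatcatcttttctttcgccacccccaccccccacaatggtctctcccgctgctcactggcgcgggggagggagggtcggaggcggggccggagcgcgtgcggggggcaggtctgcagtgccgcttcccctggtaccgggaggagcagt
Syn1: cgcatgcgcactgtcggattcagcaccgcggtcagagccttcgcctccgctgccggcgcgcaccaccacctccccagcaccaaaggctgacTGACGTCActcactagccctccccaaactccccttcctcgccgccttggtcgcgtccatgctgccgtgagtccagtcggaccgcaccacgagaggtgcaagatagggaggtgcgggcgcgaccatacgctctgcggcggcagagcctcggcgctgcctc
Vamp8: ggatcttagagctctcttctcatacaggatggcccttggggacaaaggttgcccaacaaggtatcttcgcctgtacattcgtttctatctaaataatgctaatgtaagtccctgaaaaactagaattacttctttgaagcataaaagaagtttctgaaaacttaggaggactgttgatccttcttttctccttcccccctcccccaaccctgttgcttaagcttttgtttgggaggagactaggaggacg

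Synapsins tether vesicles to each other and to actin in the reserve pool. Syn1 (ENSMUSG00000037217, chrX:20726750-20787397, minus strand of GRCm39) had a lowest, median and highest value of 56.1, 79.8 and 98.2 FPKM in the Sham group and 97.8, 124 and 142 FPKM in the tMCAO/R group. The groups overlapped only by tMCAO/R mouse 2, which lay just under the highest Sham mouse. Syn1 rose with a log2FC of 0.62 (SE 0.13, adjusted p = 0.00159 with limma). Syn2, the second abundant synapsin, had means of 44.3 ± 6.19 FPKM in the Sham group and 35.2 ± 6.27 FPKM in the tMCAO/R group (SD, n = 6 mice each), and its log2FC of -0.33 did not pass (limma adjusted p = 0.0424). Without tMCAO/R mouse 4, whose Syn2 was the highest of its group, that log2FC was -0.41 (limma adjusted p = 0.00375). Syn3 lay below the minimum, at 0.105, 0.143 and 0.254 FPKM in the Sham group and 0.476, 0.612 and 1.17 FPKM in the tMCAO/R group, and its groups did not overlap. With limma-voom on fragments, which needs no FPKM minimum, Syn3 had a log2FC of 2.11 (adjusted p = 2.7e-05). Syn3 shares a stretch of 3121 bp at 100% identity with Fbxo7, which had means of 3.55 and 3.50 FPKM, so its values and ratios are uncertain where the counting could assign shared fragments to either gene.

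Rab3 proteins are GTPases that sit on the vesicle and bind RIM at the active zone. Rab3a, the abundant neuronal form, had 101, 117 and 129 FPKM in the Sham group and 62.3, 93.3 and 109.9 FPKM in the tMCAO/R group. The groups overlapped, and the log2FC of -0.37 (SE 0.13) did not pass (limma adjusted p = 0.0267). Rab3b rose by a small step, from means of 7.91 ± 0.875 against 10.4 ± 1.37 FPKM (log2FC 0.35, SE 0.10, limma adjusted p = 0.00947), with overlap between groups. Its call was lost on leaving out any 1 of 9 libraries, namely Sham mice 1, 3, 4, 5 and 6 and tMCAO/R mice 1, 2, 5 and 6, with limma adjusted p-values from 0.00417 to 0.0272 over the 12 omissions. Rab3d, known from secretory cells, had 1.52, 1.69 and 2.00 FPKM in the Sham group and 0.212, 0.911 and 1.08 FPKM in the tMCAO/R group. Every tMCAO/R mouse was below every Sham mouse, and tMCAO/R mouse 4 was the lowest. Rab3d fell with a log2FC of -0.60 (SE 0.12, adjusted p = 0.000745 with limma), which was -0.49 without that mouse. Rab3c did not pass (log2FC 0.19).

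SV2 proteins are transporter-like glycoproteins of the vesicle membrane. Sv2b (ENSMUSG00000053025, chr7:74761975-74959131, minus strand) had 13.3, 16.0 and 21.7 FPKM in the Sham group and 32.2, 39.6 and 48.9 FPKM in the tMCAO/R group. All tMCAO/R mice were above all Sham mice, with mouse 4 the highest. Sv2b rose with a log2FC of 1.19 (SE 0.14, adjusted p = 1.35e-05 with limma). Sv2a, the most abundant of the family, had 59.5, 67.3 and 79.4 FPKM in the Sham group and 80.1, 111 and 113 FPKM in the tMCAO/R group. Its groups did not overlap, although tMCAO/R mouse 4 was barely above the highest Sham mouse while the other 5 lay close together. Sv2a rose with a log2FC of 0.63 (SE 0.11, adjusted p = 0.000327 with limma), and with a log2FC of 0.71 without mouse 4. Sv2c, which is concentrated in the basal ganglia, had 1.54, 3.23 and 3.91 FPKM in the Sham group and 2.52, 4.19 and 8.26 FPKM in the tMCAO/R group and did not pass (log2FC 0.52, limma adjusted p = 0.0735). Its highest values, 8.26, 7.21 and 4.92 FPKM, were in tMCAO/R mice 1, 6 and 2, which also had the highest sums of striatal markers (490.3, 264 and 274 FPKM), whose part in it was not tested.

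Synaptotagmins are vesicle proteins with paired C2 domains, of which Syt1, Syt2 and Syt9 are the fast calcium sensors. Of 15 tested, 6 rose and 0 fell, with a median log2FC of 0.20, beside 17.8% of all tested genes in each direction. Syt1, the most abundant, had 58.7, 69.3 and 85.9 FPKM in the Sham group and 89.9, 109 and 143 FPKM in the tMCAO/R group. The groups did not overlap, and tMCAO/R mouse 4 was the highest. Syt1 rose with a log2FC of 0.61 (SE 0.13, adjusted p = 0.00123 with limma). Syt6, with the smallest p of the family, had 0.171, 0.210 and 0.612 FPKM in the Sham group and 0.731, 1.90 and 3.56 FPKM in the tMCAO/R group. All tMCAO/R mice were above all Sham mice, of which Sham mouse 4 was the highest, and Syt6 rose with a log2FC of 1.17 (SE 0.21, adjusted p = 0.000354 with limma). In FPKM of tMCAO/R mice 1 to 6, Syt6 was 3.16, 3.56, 0.731, 0.945, 1.65 and 2.15, and the striatal markers summed to 490.3, 274, 52.2, 68.5, 161 and 264. The 3 mice with the highest Syt6 were those with the highest striatal sums, whose part in the result was not tested.

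Syt10 and Syt4, both known as genes induced by activity, rose as well. Syt10 had 0.522, 0.771 and 1.52 FPKM in the Sham group and 1.05, 3.62 and 5.77 FPKM in the tMCAO/R group (log2FC 1.24, SE 0.23, limma adjusted p = 0.0005), on only 13 to 139 fragments per library, and its groups overlapped through tMCAO/R mouse 3. Syt4, a synaptotagmin that does not bind calcium in mammals, had 23.1, 28.6 and 36.0 FPKM in the Sham group and 39.6, 51.7 and 108 FPKM in the tMCAO/R group. Its groups did not overlap and tMCAO/R mouse 4 stood far above the other 5. Syt4 rose with a log2FC of 0.94 (SE 0.20, adjusted p = 0.00137 with limma), and with a log2FC of 0.75 without mouse 4. Syt16 and Syt14 rose by smaller steps, with log2FC of 0.46 (limma adjusted p = 0.00172) and 0.37 (limma adjusted p = 0.00698). The call of Syt14 was lost without any 1 of 7 libraries (Sham mice 1 to 5 and tMCAO/R mice 1 and 2), with limma adjusted p-values from 0.00407 to 0.0187 over the omissions.

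The other 9 tested synaptotagmins did not pass, the abundant Syt5 (log2FC -0.02), Syt11 (0.09) and Syt13 (0.20) among them. Syt11 means were 62.8 ± 6.14 FPKM in the Sham group and 66.8 ± 3.94 FPKM in the tMCAO/R group (SD). Single mice decided a pair of these calls. Syt12 had means of 2.75 ± 0.793 against 3.54 ± 1.45 FPKM, with tMCAO/R mouse 4 far below the other 5 of its group. Its log2FC was 0.19 (limma adjusted p = 0.549), and 0.47 without that mouse (limma adjusted p = 0.00372). Syt9 had a log2FC of 0.49 (limma adjusted p = 0.0208), and passed without Sham mouse 4 (limma adjusted p = 0.00242) and without tMCAO/R mouse 3 (limma adjusted p = 0.00646). Syt15 lay below the minimum, at 0.107, 0.202 and 0.431 FPKM in Sham and 0, 0.0101 and 0.0663 FPKM in tMCAO/R mice, that is, on 10 to 42 against 0 to 6 fragments. With limma-voom its log2FC was -3.93 (adjusted p = 0.00019).

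Syntaxins are the membrane anchors on the target side, and Stx1a serves the synapse. Stx1a (ENSMUSG00000007207, chr5:135052139-135079963, plus strand) had 15.1, 17.5 and 19.4 FPKM in the Sham group and 20.5, 39.4 and 58.5 FPKM in the tMCAO/R group. All tMCAO/R mice were above all Sham mice, mouse 3 being the highest and mouse 4 barely above the highest Sham mouse. Stx1a rose with a log2FC of 1.08 (SE 0.19, adjusted p = 0.000401 with limma), and with a log2FC of 1.25 without mouse 4.

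Stx4a (ENSMUSG00000030805, chr7:127423466-127448191, plus strand), a plasma membrane syntaxin of many cell types, had 6.54, 8.54 and 11.7 FPKM in the Sham group and 2.46, 4.67 and 5.45 FPKM in the tMCAO/R group. Every tMCAO/R mouse was below every Sham mouse, Sham mouse 4 being the highest and tMCAO/R mouse 4 the lowest of all. Stx4a fell with a log2FC of -0.86 (SE 0.15, adjusted p = 0.000347 with limma). Its gene bounds overlap those of a gene on the other strand, and the strand setting of the counting is not stated, so shared fragments cannot be told apart. Stx2, another plasma membrane syntaxin, fell with a log2FC of -0.54 (SE 0.10, adjusted p = 0.00042 with limma) and no overlap. Stx8, of the late endosome, fell by a small step (log2FC -0.30, limma adjusted p = 0.00833). That call was lost without any 1 of 8 libraries (Sham mice 1 to 5 and tMCAO/R mice 1, 5 and 6), with limma adjusted p-values from 0.00545 to 0.022 over the omissions. The other tested syntaxins did not pass, among them those of the Golgi and endosome, such as Stx6 (log2FC -0.37), Stx12 (0.02) and Stx7 (0.17). Without tMCAO/R mouse 4, Stx3 (-0.38, limma adjusted p = 0.00348), Stx5a (0.24, limma adjusted p = 0.00546) and Stx6 (-0.26, limma adjusted p = 0.00417) passed too. Stx11 was at most 0.337 FPKM in any mouse.

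Snap25, the third subunit of the neuronal SNARE complex, was among the most abundant members and did not pass. It had 271, 304 and 326 FPKM in the Sham group and 276, 293 and 437 FPKM in the tMCAO/R group. Of the tMCAO/R mice, 4 lay inside the Sham range and mice 3 and 4 above it, and the log2FC was 0.12 (SE 0.13, limma adjusted p = 0.478). Quantile normalization moved it to 0.46 (limma adjusted p = 0.0116). Its broadly expressed relatives Snap23 (log2FC -0.02), Snap29 (0.43) and Snap47 (-0.15) did not pass either. Snap91 shares the prefix but encodes AP180, a clathrin adaptor that recovers vesicles by endocytosis. It had 9.13, 10.5 and 12.8 FPKM in the Sham group and 15.5, 17.7 and 22.5 FPKM in the tMCAO/R group. The groups did not overlap, and Snap91 rose with a log2FC of 0.71 (SE 0.11, adjusted p = 0.000133 with limma).

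Vamp genes encode the SNAREs of the vesicle side, and of the 6 tested 0 rose and 3 fell, with a median log2FC of -0.37, where 17.8% of all tested genes were called in each direction, so that 0 of 6 is not a result about the family. Vamp2, the synaptobrevin of most central synapses, had 185, 197 and 207 FPKM in the Sham group and 166, 190.0 and 213 FPKM in the tMCAO/R group. The groups overlapped almost fully, and the log2FC was -0.05 (SE 0.09, limma adjusted p = 0.706), turning to 0.15 with quantile normalization (limma adjusted p = 0.0707). Vamp5 (ENSMUSG00000073002, chr6:72345777-72357536, minus strand), known from muscle and vascular cells, had 0.893, 1.28 and 1.68 FPKM in the Sham group and 0, 0.297 and 0.502 FPKM in the tMCAO/R group, on 46 to 93 against 0 to 28 fragments. Every tMCAO/R mouse was below every Sham mouse, and mouse 4 was at 0. Vamp5 fell with a log2FC of -0.85 (SE 0.10, adjusted p = 1.55e-05 with limma), and with a log2FC of -2.80 by limma-voom on fragments (adjusted p = 0.00147).

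Vamp8 (ENSMUSG00000050732, chr6:72359012-72368482, minus strand), an endosomal SNARE of secretory and immune cells and the neighbour of Vamp5, was described for its size after its values were seen. It had 3.26, 5.16 and 9.59 FPKM in the Sham group and 1.27, 1.79 and 2.77 FPKM in the tMCAO/R group. The groups did not overlap, and Sham mouse 4, which was also highest in choroid plexus and oligodendrocyte markers, stood above the other Sham mice. Vamp8 fell with a log2FC of -1.14 (SE 0.19, adjusted p = 0.000195 with limma). Vamp3, the cellubrevin of glia and other cells, had 10.3, 11.6 and 14.8 FPKM in the Sham group and 7.84, 8.59 and 10.4 FPKM in the tMCAO/R group, and fell with a log2FC of -0.41 (SE 0.11, adjusted p = 0.00565 with limma). The call of Vamp3 was lost without any 1 of 6 libraries (Sham mice 1, 4 and 5 and tMCAO/R mice 1, 3 and 5), with limma adjusted p-values from 0.00143 to 0.0169 over the omissions. Vamp1, a second synaptic form, had a log2FC of -0.34 (limma adjusted p = 0.0415), and passed without tMCAO/R mouse 3, the 1 mouse in which it was above every Sham mouse (limma adjusted p = 0.00109). Vamp4 had a log2FC of 0.18 and did not pass.

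Complexins bind the assembled SNARE complex and both clamp and promote fusion. Cplx2, the most abundant complexin, had 259, 349 and 398 FPKM in the Sham group and 214, 291 and 357 FPKM in the tMCAO/R group. The groups overlapped, and the log2FC of -0.28 did not pass (limma adjusted p = 0.094) and was 0.02 with quantile normalization. Cplx1, the second abundant form, had 162, 194 and 209 FPKM in the Sham group and 199, 249 and 330.0 FPKM in the tMCAO/R group. Only tMCAO/R mouse 4 lay inside the Sham range. Cplx1 rose with a log2FC of 0.44 (SE 0.13, adjusted p = 0.0098 with limma), a call at the edge of the threshold. It was lost on leaving out any library other than tMCAO/R mouse 4, with limma adjusted p-values from 0.00104 to 0.0279 over the 12 omissions. Cplx3 had a log2FC of 0.34 and did not pass.

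RIM proteins are scaffolds of the active zone that bind Rab3, Munc13 and calcium channels. All 4 genes rose, beside 17.8% of all tested genes, with a median log2FC of 1.00. They summed to 16.2 to 21.5 FPKM in Sham and 31.2 to 63.2 FPKM in tMCAO/R mice. Rims1 (ENSMUSG00000041670, chr1:22356133-22845686, minus strand), which encodes a full-length RIM, had 4.04, 4.71 and 6.06 FPKM in the Sham group and 8.14, 9.47 and 11.6 FPKM in the tMCAO/R group. All tMCAO/R mice were above all Sham mice. Rims1 rose with a log2FC of 0.87 (SE 0.11, adjusted p = 3.21e-05 with limma). Rims4, a short form with a single C2 domain and the most abundant of the family, had 7.40, 9.53 and 10.4 FPKM in the Sham group and 8.72, 23.4 and 29.9 FPKM in the tMCAO/R group. Its groups overlapped through tMCAO/R mouse 4 alone, which lay inside the Sham range. Rims4 rose with a log2FC of 1.13 (SE 0.22, adjusted p = 0.000795 with limma), and with a log2FC of 1.37 without mouse 4 (limma adjusted p = 2.14e-07). Rims3, the other short form, had the largest log2FC of all members on the log2(FPKM + 1) scale. It had 2.31, 3.30 and 3.38 FPKM in the Sham group and 5.27, 8.42 and 17.5 FPKM in the tMCAO/R group. The groups did not overlap, with tMCAO/R mouse 3 the highest, and Rims3 rose with a log2FC of 1.29 (SE 0.20, adjusted p = 0.000141 with limma). By limma-voom on fragments its log2FC was 1.54, under those of the lower genes Syt6 (2.85), Syn3 (2.11), Syt10 (1.97) and Stxbp5l (1.89). Rims2 rose with a log2FC of 0.57 (SE 0.11, limma adjusted p = 0.000852) and no overlap.

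Munc13 proteins, encoded by Unc13 genes, prime vesicles by opening syntaxin. Unc13a, the main cortical form, had 10.4, 12.4 and 14.8 FPKM in the Sham group and 8.40, 15.6 and 18.1 FPKM in the tMCAO/R group. The groups overlapped, tMCAO/R mouse 4 being the lowest of all 12 mice, and the log2FC of 0.17 did not pass (limma adjusted p = 0.37). Unc13c, best known from the cerebellum, had 0.647, 0.854 and 1.50 FPKM in the Sham group and 1.38, 1.98 and 4.40 FPKM in the tMCAO/R group and rose with a log2FC of 0.73 (SE 0.19, adjusted p = 0.005 with limma). That call was lost without any 1 of 5 libraries (Sham mice 1, 3, 5 and 6 and tMCAO/R mouse 1), with limma adjusted p-values from 0.00252 to 0.014 over the omissions. Unc13b had 0.665, 0.768 and 0.847 FPKM in the Sham group and 0.485, 0.549 and 0.645 FPKM in the tMCAO/R group. All tMCAO/R mice were below all Sham mice, but on the log2(FPKM + 1) scale the log2FC of -0.19 did not pass (limma adjusted p = 0.0105), whereas by limma-voom on fragments it was -0.48 (adjusted p = 0.00196). It also passed without Sham mouse 6 (limma adjusted p = 0.00823) or without tMCAO/R mouse 4 (limma adjusted p = 0.0064). Unc13d was at most 0.183 FPKM in any mouse.

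Stxbp genes encode a mixed set of syntaxin-binding proteins, of which 7 were tested. The tomosyns Stxbp5l and Stxbp5, which hold syntaxin and SNAP-25 away from the vesicle SNARE, rose with log2FC of 0.79 (limma adjusted p = 1.36e-05) and 0.57 (limma adjusted p = 0.00029), both without overlap. Stxbp2, known from epithelial and blood cells, had 1.80, 2.34 and 3.43 FPKM in the Sham group and 0.694, 1.04 and 1.39 FPKM in the tMCAO/R group. Every tMCAO/R mouse was below every Sham mouse, of which Sham mouse 4 was the highest, and Stxbp2 fell with a log2FC of -0.79 (SE 0.12, adjusted p = 7.94e-05 with limma). Stxbp6 (amisyn) fell from means of 15.6 ± 2.36 against 8.84 ± 2.12 FPKM (log2FC -0.77, SE 0.14, limma adjusted p = 0.000526), its groups overlapping through tMCAO/R mouse 4. Stxbp3 (0.08) and Stxbp4 (0.11) did not pass.

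**Figure D2:**
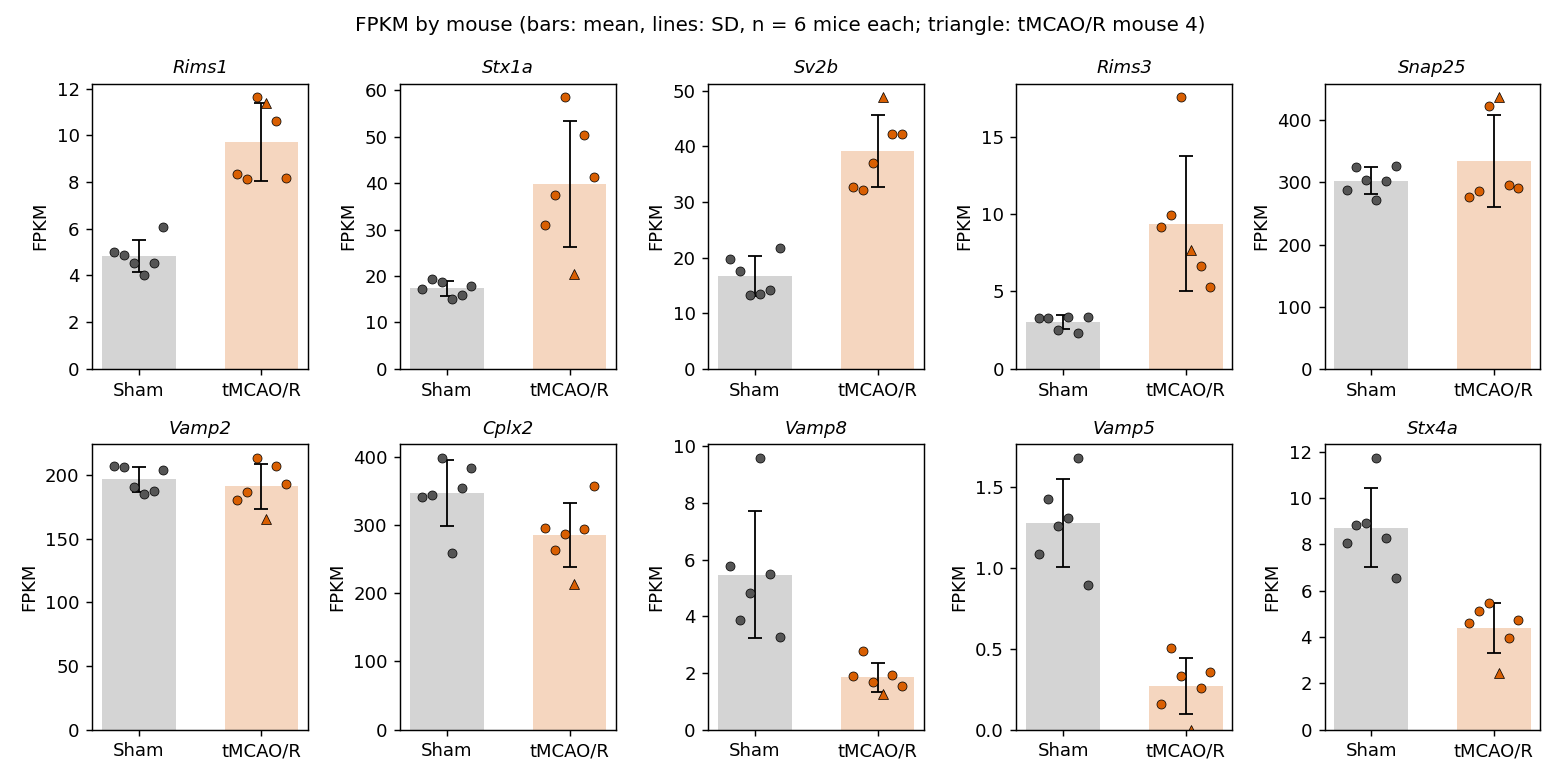
FPKM (y axis) of 10 release genes in each mouse, with bars for the mean and lines for the SD of the 6 Sham and 6 tMCAO/R mice (x axis), and a triangle for tMCAO/R mouse 4. Rims1 lies between 4.04 and 6.06 FPKM in Sham and between 8.14 and 11.6 FPKM in tMCAO/R mice, while Snap25, Vamp2 and Cplx2 overlap between the groups.

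**Figure D3:**
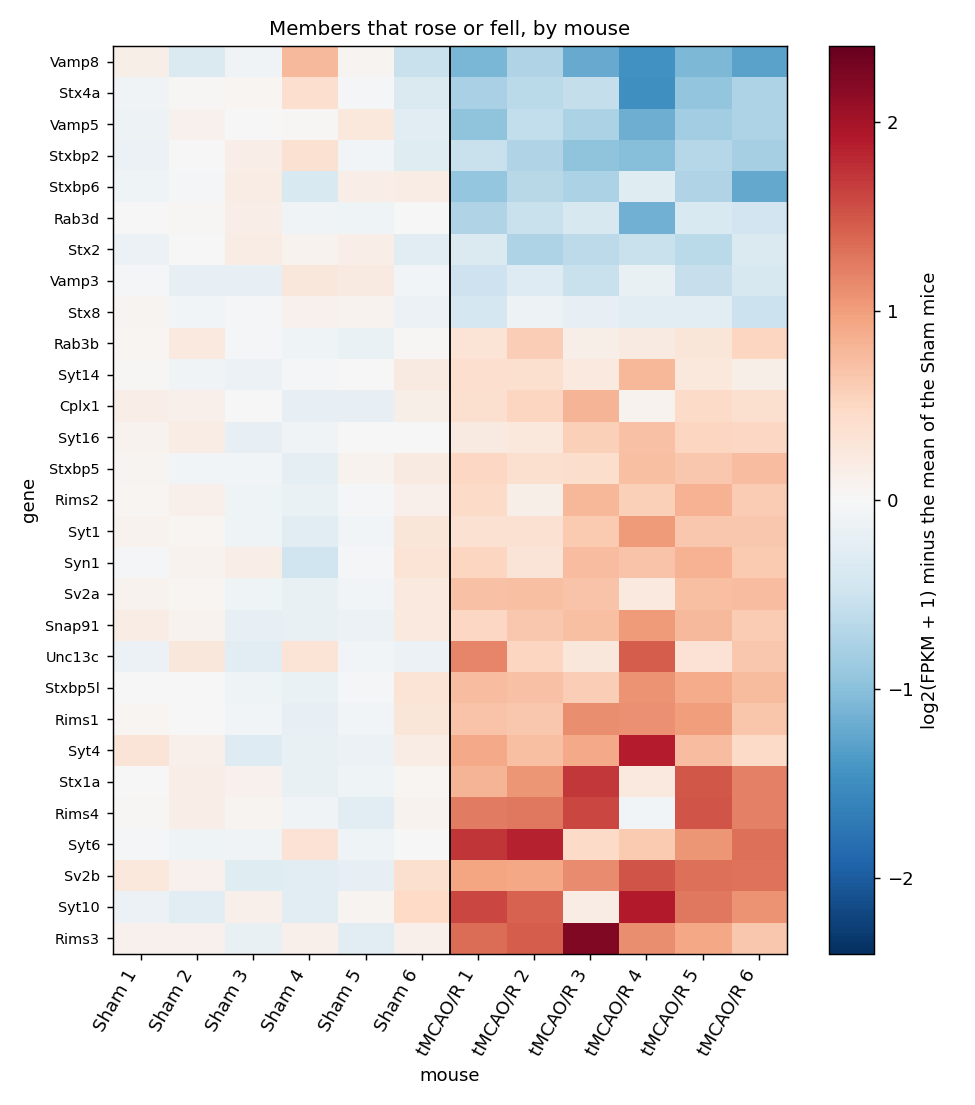
log2(FPKM + 1) minus the mean of the Sham mice (colour) for 20 of the members that rose and the 9 that fell (y axis) in each of the 12 mice (x axis). Most tMCAO/R columns are blue for the 9 genes that fell and red for the 20 that rose, and mouse 4 has a near-white cell for Rims4, at 8.72 FPKM against 9.53 FPKM at the Sham median.

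Related genes were then compared with each other inside each mouse, since a log2 ratio of a pair of genes in 1 library does not depend on the scaling of that library. For 14 pairs with like roles, 0.1 FPKM was added to each gene, and the test was an exact permutation over the mice, two-sided, with Benjamini-Hochberg adjustment over the 14 pairs and a threshold of 0.05. Of these, 12 are described. The smallest p this design can give is 0.00216. Syn1 over Syn2 had a mean log2 ratio of 0.84 ± 0.18 in Sham and 1.80 ± 0.22 in tMCAO/R mice (SD), a difference of 0.96 (exact permutation, adjusted p = 0.00606). Cplx1 over Cplx2 moved by 0.72, and Sv2a over Sv2b by -0.60 (exact permutation, adjusted p = 0.00606 each). In these 3 pairs the groups did not overlap, so the ratios of all 6 tMCAO/R mice lay on 1 side of those of all Sham mice.

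The ratio of Syt1 to Syt7, the slow calcium sensor, moved by 0.54 (exact permutation, adjusted p = 0.013), with overlap between groups. Changes of Rab3a over Rab3c (-0.57, adjusted p = 0.0424), Vamp1 over Vamp2 (-0.33, adjusted p = 0.037) and Unc13a over Unc13b (0.59, adjusted p = 0.037, exact permutation) passed narrowly and were lost when most single libraries were left out. Without tMCAO/R mouse 4 the Rab3a ratio moved by -0.36. Syn3 over Syn1 moved by 0.96 (exact permutation, adjusted p = 0.00606), but with 1 FPKM added, more than Syn3 itself has in most mice, the difference was -0.087. Rims1 over Rims2 (0.23), Syt1 over Syt2 (0.37), Snap25 over Snap23 (0.18) and Sv2c over Sv2a (0.00) did not pass, with exact permutation adjusted p-values of 0.0689, 0.152, 0.357 and 1. The Rims1 ratio passed without tMCAO/R mouse 6 (0.29, exact permutation, adjusted p = 0.0227).

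**Figure D4:**
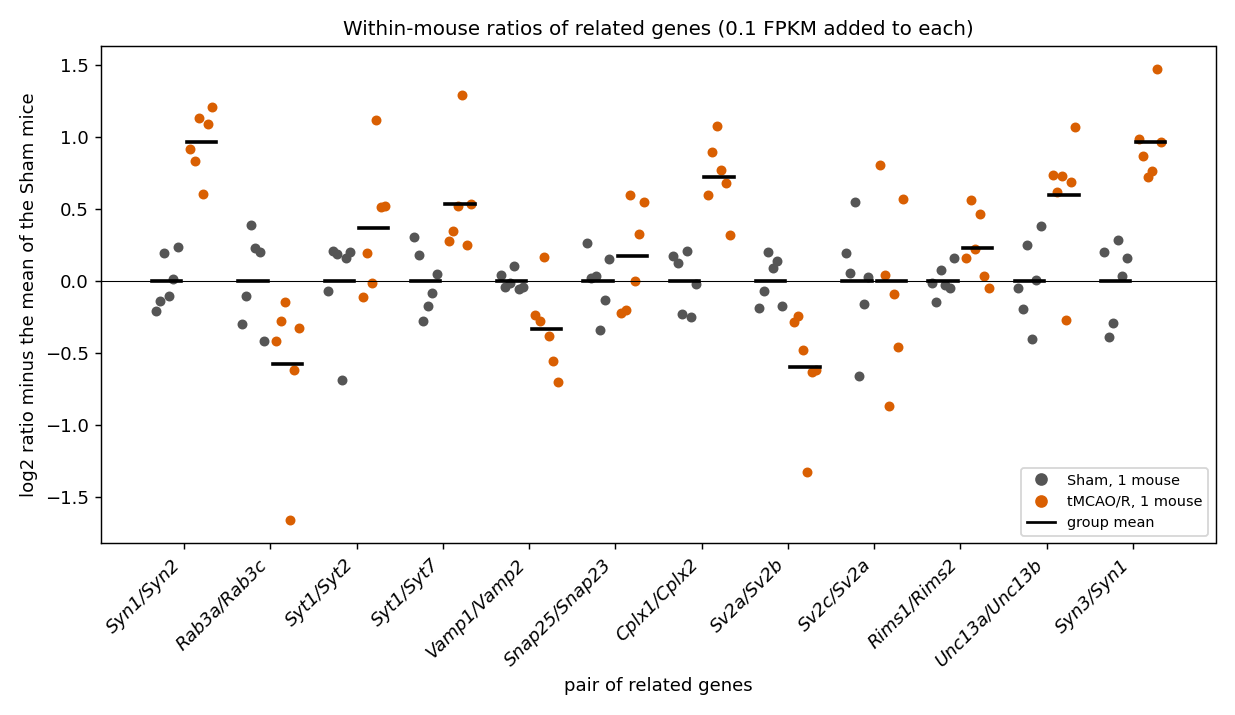
log2 ratio of each of 12 pairs of related genes (x axis), with 0.1 FPKM added and the Sham mean subtracted (y axis), with 1 point per mouse and a line for each group mean. The 6 tMCAO/R mice lie above all Sham mice for Syn1/Syn2, Cplx1/Cplx2 and Syn3/Syn1, and below them for Sv2a/Sv2b.

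Other genes of the vesicle cycle, from lists that are not part of the family rule, gave mixed counts. Of 20 genes of the active zone and priming, 7 rose and 3 fell (median log2FC 0.28). Lin7a, an active zone adaptor, had means of 1.26 ± 0.266 FPKM in the Sham group and 5.01 ± 0.955 FPKM in the tMCAO/R group (log2FC 1.40, SE 0.12, limma adjusted p = 5.25e-07). Doc2a, a calcium sensor of spontaneous release, had 0.419 ± 0.128 FPKM in the Sham group and 2.65 ± 0.864 FPKM in the tMCAO/R group (log2FC 1.33, SE 0.14, limma adjusted p = 5.32e-06). Its more abundant relative Doc2b, named after its values were seen, went the other way. Doc2b had 24.0 ± 8.29 FPKM in the Sham group and 7.62 ± 2.60 FPKM in the tMCAO/R group (log2FC -1.53, SE 0.23, limma adjusted p = 0.000101). The most abundant genes of that list, Git1 (log2FC -0.08) and the Rab3 effector Rph3a (0.28), did not pass. Of 18 vesicle membrane genes, 5 rose and 2 fell (median 0.13). The synaptogyrins parted: neuronal Syngr1 had 61.8 ± 10.6 FPKM in the Sham group and 113 ± 25.1 FPKM in the tMCAO/R group (log2FC 0.84, SE 0.16, limma adjusted p = 0.000756), and the broadly expressed Syngr2 had 1.99 ± 0.456 FPKM in the Sham group and 0.709 ± 0.239 FPKM in the tMCAO/R group (log2FC -0.81, SE 0.12, limma adjusted p = 6.43e-05). The vesicle markers Syp (log2FC -0.16) and Slc17a7, the vesicular glutamate transporter (-0.01), did not pass.

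Of 21 endocytosis genes 3 rose and 3 fell (median 0.07). The dynamin gene Dnm3 had 1.86 ± 0.303 FPKM in the Sham group and 4.88 ± 1.23 FPKM in the tMCAO/R group (log2FC 1.03, SE 0.12, limma adjusted p = 1.25e-05), and the clathrin heavy chain gene Cltc had 22.9 ± 2.95 FPKM in the Sham group and 46.5 ± 10.4 FPKM in the tMCAO/R group (log2FC 0.97, SE 0.13, limma adjusted p = 3.76e-05). Of the AP-2 adaptor subunits, Ap2s1 fell with a log2FC of -0.59 (limma adjusted p = 0.000345), whereas Ap2a1, named after its values were seen, rose with a log2FC of 0.90 (limma adjusted p = 0.000231). Ap2m1 (0.06), Ap2a2 (-0.11) and Ap2b1 (0.15) did not pass. Of 10 genes for SNARE recycling and chaperones, 2 rose and 2 fell (median -0.23). Dnajc5, the cysteine string protein that protects SNAP-25, rose with a log2FC of 0.43 (limma adjusted p = 0.00233), and Sncg, gamma-synuclein, fell with -1.27 (limma adjusted p = 0.00507). Hspa8 (-0.28) and Sncb (-0.20), the most abundant of that list, did not pass. Over all 4 lists the shares that rose ranged from 14.3% to 35.0%, around the 17.8% of all tested genes.

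Gene length and shared sequence bear on some of these values. The gene length that 1 fragment implies in the deposited FPKM was 1.36 times the merged exon length at the median of the members and ranged from 0.189 to 4.06 times, so levels of different genes depend on a length whose definition is not given in the sources used here. Across genes, which are not independent replicates, this length had a Spearman rho of 0.21 with log2FC over the 65 members and 0.26 over 11739 tested genes. Stretches of at least 300 bp at 95% identity or more were shared with another gene of the table by 9 members. The longest were those of Syn3 with Fbxo7 (3121 bp) and of Unc13a with Colgalt1 (2758 bp), which had means of 5.39 FPKM in Sham and 4.32 FPKM in tMCAO/R mice, and others were those of Snap23 (Lrrc57), Stx18 (Nsg1), Rab3a (Mpv17l2), Rims4 (Kcnk15) and Snap47 (Jmjd4).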

How the data were processed

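mRNA of the penumbra was sequenced from 6 Sham and 6 tMCAO/R mice, with 1 library per mouse. Per the labels and methods, the authors captured poly(A) RNA, sequenced it in pairs on a NovaSeq instrument, trimmed with fastp, aligned to GRCm39 with HISAT2 2.2.1, counted with HTSeq 2.0.2, called differential genes with DESeq2 1.24.0 and deposited FPKM values without counts. The annotation, the length definition and the strand setting are not given in the sources used here.

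Within each gene the FPKM were whole multiples of 1 fragment for 14308 of 14317 genes (tolerance 1e-05 fragments), which gave library totals of 13057288 to 15808212 fragments. A gene was tested if it reached 0.5 FPKM in 6 or more libraries, which 11743 did. The test was limma 3.58.1 (R 4.3.3; lmFit and eBayes with trend) of log2(FPKM + 1), and p-values were adjusted over all 11743 genes by Benjamini-Hochberg. Limma-voom on the recovered fragments (at least 10 in at least 6 libraries, 13891 genes) was an alternative, and called 2262 genes higher (16.3%) and 2297 lower (16.5%). The scripts were tested on simulated data. Ratios used scipy 1.17.1, and similar sequences BLAST 2.17.0 on GENCODE M39 transcripts. Gene coordinates are those of GENCODE M39 on GRCm39, whereas the RefSeq promoters are of build GRCm38.p6 and were not converted.

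The members, lists and pairs were chosen with earlier results of these data known. In each role, full values went to the member with the smallest p in each direction and to the most abundant member. From each other list at most 4 genes were named by rule: 2 by smallest p and 2 by highest mean FPKM. Doc2b, Ap2a1, Ap2a2 and Ap2b1 were named outside this rule. Vamp8, Rims3, Syt4, Syt10, Syn3, Syt15, Sv2c, Vamp3 and Unc13b were given in full after their values were seen. Some members and pairs that enter the counts are not reported here.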

Additional observations from a re-analysis of the deposited data

Results flagged for a closer look

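Among 138 sets of 6 values (69 genes in each group), 17 held a mouse whose gap to its nearest neighbour passed the 95% critical value of Dixon's test, which chance gives in about 1 in 20 sets. Of these, 10 were in tMCAO/R mouse 4. It was the lowest of its group for Rims4 (8.72 FPKM), Sv2a (80.1 FPKM), Stx6 (4.27 FPKM), Syt3 (3.58 FPKM) and Syt12 (0.612 FPKM). It was the highest for Syt4 (108 FPKM), Stx12 (58.9 FPKM), Stx7 (27.4 FPKM), Vamp4 (12.8 FPKM) and Syt14 (2.00 FPKM).

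The other 7 were spread over 5 mice. In tMCAO/R mouse 5, Syn3 (1.17 FPKM) and Syt15 (0.0663 FPKM) were high, and in tMCAO/R mouse 3 Vamp1 was high (11.3 FPKM). Among Sham mice, mouse 4 was high in Syt6 (0.612 FPKM) and Syt9 (1.35 FPKM), mouse 6 was high in Stxbp5l (0.754 FPKM) and mouse 2 was low in Syt11 (51.1 FPKM).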

How the results depend on the processing

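None of the 30 members that rose or fell changed direction under any of the settings, and 24 of the 30 calls were kept when any 1 library was left out. The count of members that rose ranged from 17 to 23 over these 12 omissions and the count that fell from 7 to 13, while 14.2% to 22.4% of all tested genes rose and 14.4% to 21.2% fell. The count that fell was 14 at an adjusted p of 0.05 (21.5% of members, 26.2% of all genes), and 14 by limma-voom without tMCAO/R mouse 4 (20.6% and 19.9%), a setting chosen after seeing the data. The voom test on all libraries gave 21 that rose and 11 that fell. Quantile normalization added Stx6 (log2FC -0.41) and lost Rab3b (0.31). It moved these abundant members upward: Snap25 to 0.46, Cplx1 to 0.69, Cplx2 to 0.02, Vamp2 to 0.15, Syt11 to 0.28 and Rab3a to -0.18. With no minimum Cplx1 was lost, and Unc13b, Syn3 and Syt15 were added.

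The replicate numbers of the labels did not pair the mice: same-numbered mice deviated together with correlations of -0.12 to 0.22, and 0 of 6 matched best with their own number. With the number as a replicate block, 19 members rose and 8 fell, beside 15.0% and 14.5% of all tested genes, with Cplx1, Stx8, Syt14 and Syt16 lost and Syt9 gained.

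With 1 FPKM added in place of 0.1, the change of Syn3 over Syn1 reversed to -0.087 (exact permutation, adjusted p = 0.541), that of Unc13a over Unc13b was 0.36 and no longer passed, and that of Rims1 over Rims2 was 0.30 and passed. The cause was not tested. Over the omissions the changes ranged from -0.66 to -0.36 for Rab3a over Rab3c, from -0.43 to -0.26 for Vamp1 over Vamp2, from 0.50 to 0.77 for Unc13a over Unc13b and from 0.17 to 0.29 for Rims1 over Rims2. Depth limits the genes with few fragments, such as Stx11, Unc13d, Syt15, Vamp5, Syt10, Syn3, Syt9, Rab3d, Vamp8 and Syt6. Syn3 had 26 to 59 fragments in Sham mice, and Rab3d had 26 to 150 in tMCAO/R mice.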
